A study of Mus musculus with 13 samples.

Results

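Pyruvate and lactate use was followed through 9 genes, taken by symbol from the deposited tables: Ldha and Ldhb of lactate dehydrogenase, Mpc1 and Mpc2 of the mitochondrial pyruvate carrier, and Pdha1, Pdhb, Dlat, Dld and Pdhx of the pyruvate dehydrogenase complex. All 9 were present among the 18939 genes with estimated counts and the 49686 genes with FPKM values (fragments scaled for transcript length and library size). They were read in 13 libraries, each made from 1 mouse oocyte. The mouse oocyte relies on pyruvate as its main fuel, and cumulus cells, which metabolise glucose, supply it. Lactate dehydrogenase interconverts lactate and pyruvate in the cytosol, the carrier moves pyruvate across the inner mitochondrial membrane, and the pyruvate dehydrogenase complex turns it into acetyl-CoA for the citric acid cycle. The carrier is a heterodimer of MPC1 and MPC2, and the complex needs all of its subunits, so the genes code for parts that work together.

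GV oocytes, arrested with an intact germinal vesicle, came from C57BL/6 females of 3 to 4 weeks, 48 h after PMSG, a gonadotrophin that stimulates follicle growth. Injected FBL-GFP mRNA, which marks the nucleolus, was used to sort the oocytes after 6 h in Cilostamide, a phosphodiesterase inhibitor that holds them at the GV stage. NSN oocytes have less condensed chromatin that does not surround the nucleolus, and SN oocytes have a condensed ring around it. At the GV stage 3 SN and 3 NSN oocytes were sequenced. The other 7 oocytes were released after sorting and matured to metaphase II in culture, 4 from SN oocytes (SN-MII) and 3 from NSN oocytes (NSN-MII). The injection, the inhibitor and a culture medium with added sodium pyruvate were therefore shared by all groups. Only the MII oocytes were released and cultured further, so stage cannot be told apart from time in that medium or from release. These were other oocytes than those read at GV, and all had reached metaphase II. The study reported a lower rate of polar body extrusion in NSN than in SN oocytes. Selection during maturation therefore cannot be told apart from a change with stage, within a type or between types. No uninjected oocyte or oocyte matured in the ovary was analysed here. The labels number single oocytes without naming the female, so p-values measure the spread between these oocytes.

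Total counts per library lay between 7140416 and 8846287, and the 3 NSN-MII libraries differed among themselves in several of the genes below. Fewest genes, 11579, were detected in the third NSN-MII library, against 11818 to 13333 in the others, and its scaling factor was the smallest, at 0.799. All 15 listed oocyte genes were detected in every library, and between the stages 4 of them rose, 9 fell and 2 were not called. Of 20 listed cumulus and granulosa cell genes, 8 to 13 were detected per library, with a summed level of 181 to 234 CPM (counts scaled to a common library total) at GV and 219 to 286 CPM at MII. Esr2 and Cyp19a1 carried most of that sum, the first at 41.57 to 49.98 FPKM at GV and 25.36 to 39.07 FPKM at MII and the second at 16.80 to 27.56 and 30.22 to 53.05 FPKM. Foxl2, a granulosa cell transcription factor, and Ptx3, a cumulus matrix protein, were at 0 in every library. Between the stages 2 genes of that list rose, 1 fell and 5 were not called, where 68.6% of all genes were called, 31.7% higher and 36.9% lower. The part of such cells in the results was not tested.

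The cDNA was primed on poly(A) tails. Fewer mRNA copies and shorter tails therefore cannot be told apart in these values, and a level is relative to the rest of the library, so a loss of total mRNA per oocyte is not seen. Because tail length bears on every value, the 3′ end of each annotated transcript is shown, 30 bases with the signal in capitals. Cleavage and polyadenylation use the hexamers AATAAA or ATTAAA, and maternal mRNAs that lengthen their tails during maturation often carry a cytoplasmic polyadenylation element, searched here as TTTTAT or TTTTAAT. The letters were searched on the mRNA strand only, in the last 100 bases of 1 GENCODE M21 transcript per gene (GRCm38, mm10), and sequences run 5′ to 3′ along the mRNA in DNA letters. Motifs may share letters with one another. Capitals mark a hexamer in 8 of the 9 genes and TTTTAAT in Dld.
Ldha (chr7:46855596-46855625, plus strand): agtgtcatgccaAATAAAaccttgaacagt
Ldhb (chr6:142490255-142490284, minus strand): agctcctgatcaAATAAAgttagcaattgc
Mpc1 (chr17:8297627-8297656, plus strand): taacttaatggcAATAAAtggtttaaatat
Mpc2 (chr1:165481182-165481211, plus strand): ccatttgtccatAATAAAccgtacttggtc
Pdha1 (chrX:160122220-160122249, minus strand): aaaaggaaacgaATTAAActtgtttgattc
Pdhb (chr14:8165999-8166028, minus strand): gttttgataaggAATAAAggggattcccac
Dlat (chr9:50634646-50634675, minus strand): aattgtttaaaaATTAAAcatgttttcagt
Dld (chr12:31331292-31331321, minus strand): gcttagtaatgtTTTTAATcttagtaaatg
Pdhx (chr2:103021077-103021106, minus strand): caaatgtaagaaAATAAAaaaattctagtc

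Of 16698 annotated 3′ ends searched in the same way, 66.6% held the first hexamer, AATAAA, and 21% the second. The first element, TTTTAT, was found in 14.1% of these ends and the longer one in 5.10%. Among the 9 genes, Pdha1 and Dlat held the second hexamer, 6 held the first, and Dld held neither. Dld alone among the 9 held a cytoplasmic polyadenylation element in this window. The annotated 3′ untranslated regions ranged from 188 bases in Ldhb to 1792 bases in Dlat, around a median of 861 bases over 17816 genes. A match is a description of these letters, and whether any of the 9 mRNAs changed its tail was not measured.

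Ldhb, which codes for the H subunit of lactate dehydrogenase (chromosome 6, 142490249 to 142507957), was by far the most abundant of the 9 genes. Its level was 3360.10, 3416.71 and 3545.85 FPKM in SN GV oocytes and 3630.08, 4489.31 and 3535.76 FPKM in NSN GV oocytes. Among all genes it ranked 6 to 8 by count in the GV libraries, where it took 0.444% to 0.609% of all counts. At MII it stood at 1648.16, 2426.57, 2136.61 and 2015.24 FPKM in SN-MII oocytes and at 3524.16, 2347.64 and 824.69 FPKM in NSN-MII oocytes. All 4 SN-MII oocytes lay below all GV oocytes. The NSN-MII oocytes spread widely, with the first inside the GV range and the third oocyte at the lowest level of any library. Over all libraries Ldhb was 1.56-fold lower at MII (log2 fold change −0.64, SE 0.21, adjusted p = 0.0129), and leaving out single libraries moved the log2 value between −0.88 and −0.48 with the call kept each time.

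Ldha, coding for the M subunit of the same enzyme (chromosome 7, 46841475 to 46855627), was at or near 0 throughout. Its level was 0.35, 0.47 and 0.09 FPKM in SN GV, 0.08, 0.93 and 0.57 FPKM in NSN GV, 0.49, 2.88, 0.08 and 1.24 FPKM in SN-MII, and 0.24, 0 and 0.18 FPKM in NSN-MII oocytes. These rested on 0 to 9 counts in every library but the second SN-MII library, which had 37. The listed cumulus and granulosa cell genes summed to 231 CPM in that library, with 12 of them detected. All MII libraries, this one among them, spanned 219 to 286 CPM and 8 to 13 genes. Esr2 and Cyp19a1 carried most of these sums, and the source of the 37 counts was not tested. Ldha did not pass the filter on low counts and was not tested. Per length, Ldhb made up nearly the whole sum of both genes in every library, the lowest share being 99.88% in the second SN-MII library. The coding sequences of Ldha and Ldhb were identical at 72.6% of aligned positions and shared no run longer than 18 bases. Of all 75-base stretches of the Ldhb transcript, 16.7% also occurred in the processed pseudogene Gm5514. For Ldha, 5.38% of the stretches occurred in 4 other genes, so some reads of both genes may be shared with such copies.

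**Figure D1:**
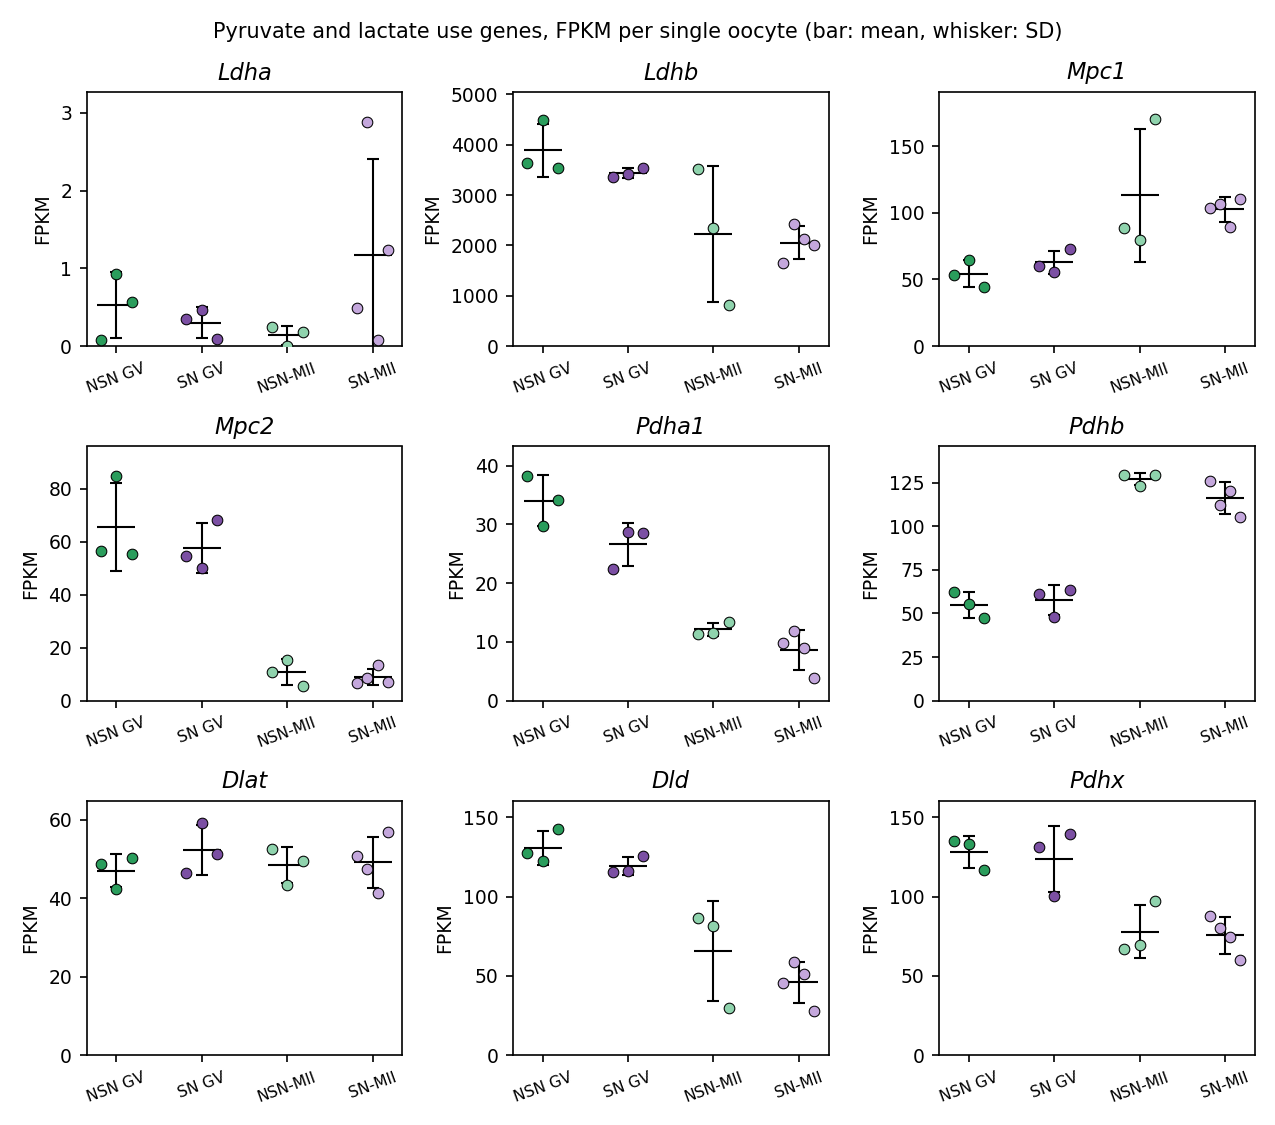
FPKM of each of the 9 genes (vertical axis, from 0, on a scale of its own in each panel) in 13 single oocytes, grouped by type (NSN or SN) and stage (GV or MII). Points are libraries, the horizontal bar is the group mean and the whisker 1 SD (n = 3, 3, 3 and 4). Mpc2, Pdha1 and Dld sit lower at MII, Pdhb and Mpc1 sit higher, Dlat overlaps in all groups, and the NSN-MII oocytes spread widely in Ldhb, Mpc1 and Dld.

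Both carrier genes moved between the stages, in opposite directions. Mpc2 (chromosome 1, 165460637 to 165481214) was at 54.53, 50.21 and 68.25 FPKM in SN GV and 56.69, 84.97 and 55.32 FPKM in NSN GV oocytes. It was at 6.55, 8.58, 13.41 and 7.07 FPKM in SN-MII and 10.93, 15.50 and 5.59 FPKM in NSN-MII oocytes. The highest MII oocyte was thus well below the lowest GV oocyte, and the fitted difference was 5.09-fold (log2 fold change −2.35, SE 0.22, adjusted p = 1.12e-07). It was the strongest change among the 8 genes tested. Mpc1 (chromosome 17, 8282904 to 8297661), coding for the partner of MPC2, was at 59.79, 55.91 and 72.57 FPKM in SN GV and 53.49, 64.60 and 44.44 FPKM in NSN GV oocytes. At MII it rose to 103.66, 106.47, 89.48 and 110.21 FPKM in SN-MII and 88.93, 79.90 and 170.12 FPKM in NSN-MII oocytes. No MII oocyte overlapped the GV oocytes, and Mpc1 was 2.09-fold higher at MII (log2 fold change 1.07, SE 0.21, adjusted p = 0.0003). The third NSN-MII library held the highest Mpc1 value, and without it the log2 fold change was 0.78 (adjusted p = 0.0003).

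The ratio of Mpc1 to Mpc2, per length, was therefore near 1 in GV oocytes and far above it in MII oocytes. It was 0.76 to 1.11 in the 6 GV libraries, with a median of 1, and 5.15 to 30.4 in the 7 MII libraries, with a median of 12.4. In estimated counts, which do not depend on the length given to a transcript, the ratio was 0.642 to 0.957 at GV and 3.66 to 20.2 at MII. At GV the FPKM ratio was 0.76 to 0.944 in NSN and 1.06 to 1.11 in SN oocytes, without overlap, whereas the count ratios of 0.642 to 0.828 and 0.786 to 0.957 overlapped. Of all 75-base stretches of the Mpc1 transcript, 37.0% also occurred in the processed pseudogene Mpc1-ps or another gene, so reads there may be shared. Mpc1-ps has no FPKM value here, so its level cannot be read, and its reads may be counted as Mpc1. Mpc2 held no stretch found in another gene.

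The pyruvate dehydrogenase complex also split between its subunits. Pdha1 and Pdhb code for the alpha and beta subunits of E1, the part that decarboxylates pyruvate. Pdha1 (chromosome X, 160122209 to 160138413) was at 22.46, 28.79 and 28.53 FPKM in SN GV and 38.30, 29.72 and 34.17 FPKM in NSN GV oocytes. It was at 9.84, 11.94, 8.90 and 3.88 FPKM in SN-MII and 11.40, 11.57 and 13.47 FPKM in NSN-MII oocytes. Every MII oocyte lay below every GV oocyte, and Pdha1 was 2.66-fold lower at MII (log2 fold change −1.41, SE 0.21, adjusted p = 1.3e-05). Pdhb (chromosome 14, 8165996 to 8173025) was at 61.38, 48.07 and 63.65 FPKM in SN GV and 62.40, 55.35 and 47.49 FPKM in NSN GV oocytes. It was at 126.28, 112.00, 120.43 and 105.54 FPKM in SN-MII and 129.40, 122.98 and 129.21 FPKM in NSN-MII oocytes. The stages did not overlap, and Pdhb was 2.4-fold higher at MII (log2 fold change 1.27, SE 0.13, adjusted p = 3.59e-07).

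The ratio of Pdhb to Pdha1 in FPKM was 1.39 to 2.73 at GV and 9.38 to 27.2 at MII, the highest being the fourth SN-MII library, where Pdha1 was lowest. In estimated counts it was 0.691 to 1.36 at GV and 4.66 to 13.5 at MII. Some reads of these genes cannot be assigned with certainty, since 13.9% of the 75-base stretches of Pdha1 occur in Map3k15 on the opposite strand and 19.9% of those of Pdhb in the processed pseudogene Gm6123. Map3k15 and Gm6123 were given low levels, at no more than 1.56 and 0.26 FPKM. These levels were read after shared reads had been divided between genes, so they cannot show how many were assigned wrongly. Pdha2, an intronless copy of Pdha1 best known from the testis, was at 0.45 to 2.3 FPKM at GV and 0.67 to 3.27 FPKM at MII, below the Pdha1 range of the same stage.

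Dlat codes for E2, the acetyltransferase core of the complex, and it was the 1 tested gene with no call between the stages. Its level (chromosome 9, 50634633 to 50659780) was 46.40, 59.09 and 51.28 FPKM in SN GV and 48.60, 42.25 and 50.18 FPKM in NSN GV oocytes. At MII it was 50.73, 47.56, 41.21 and 56.95 FPKM in SN-MII and 52.52, 43.47 and 49.43 FPKM in NSN-MII oocytes. The ranges of the 4 groups overlapped one another, each in part or in full. The log2 fold change was 0.039 with a 95% interval of −0.25 to 0.33 (adjusted p = 0.808), and its sign turned in several alternative fits.

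Dld and Pdhx, the remaining subunit genes, were lower at MII. Dld (chromosome 12, 31331277 to 31351453), coding for E3, the dihydrolipoamide dehydrogenase that several mitochondrial complexes share, was at 115.62, 116.23 and 125.61 FPKM in SN GV and 127.17, 122.42 and 142.65 FPKM in NSN GV oocytes. It was at 45.66, 58.88, 51.06 and 27.97 FPKM in SN-MII and 86.17, 81.64 and 29.54 FPKM in NSN-MII oocytes. All MII oocytes were below all GV oocytes, though the first and second NSN-MII oocytes lay above the SN-MII oocytes and the third among them. Dld was 2.10-fold lower at MII (log2 fold change −1.07, SE 0.20, adjusted p = 0.000181). Pdhx (chromosome 2, 103021075 to 103073513) codes for the protein that binds E3 to the E2 core. It was at 131.02, 100.17 and 139.44 FPKM in SN GV, 135.18, 133.16 and 116.70 FPKM in NSN GV, 87.86, 80.20, 74.51 and 60.01 FPKM in SN-MII, and 66.99, 69.56 and 97.01 FPKM in NSN-MII oocytes. In FPKM the stages were just apart, while in CPM they overlapped, and the fitted difference was 1.46-fold (log2 fold change −0.55, SE 0.16, adjusted p = 0.00562).

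The order of the genes within the complex differed between the stages. By median FPKM at GV, Pdhx at 132 and Dld at 124 stood above Pdhb at 58.4, Dlat at 49.4 and Pdha1 at 29.3, with Pdhx and Dld overlapping and Pdhb and Dlat overlapping. At MII, Pdhb led at 123, followed by Pdhx at 74.5, Dld at 51.1, Dlat at 49.4 and Pdha1 at 11.4. Pdhb and Pdhx did not overlap there, nor did Pdhx and Dlat, but the range of Dld, 27.97 to 86.17 FPKM, covered that of Dlat and met that of Pdhx. Dld was 1.88 to 3 times Pdhb at GV and 0.229 to 0.666 times Pdhb at MII. Pdhx was 2.08 to 2.46 times Pdhb at GV and 0.518 to 0.751 times at MII. Its ratio to Dlat, 1.70 to 3.15 at GV and 1.05 to 1.96 at MII, overlapped between the stages.

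**Figure D2:**
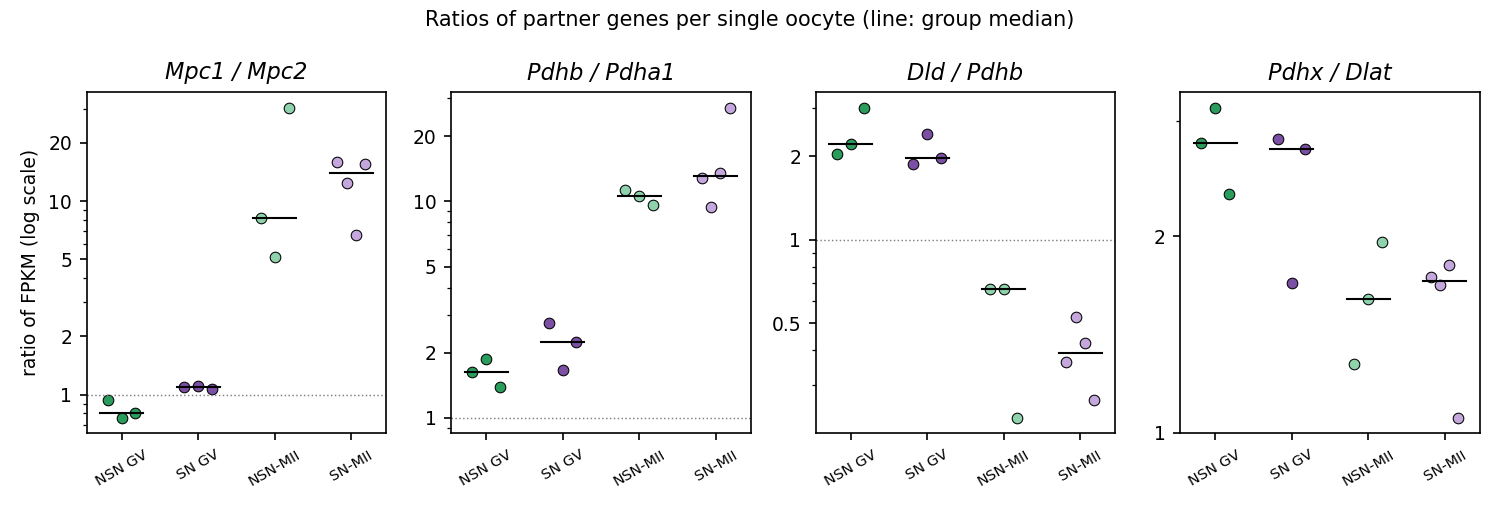
Ratios of FPKM between partner genes (vertical axes, log scale, each panel on a scale of its own) in each of 13 single oocytes, grouped by type (NSN or SN) and stage (GV or MII), with a line at the group median and a dotted line at a ratio of 1. Mpc1 over Mpc2 and Pdhb over Pdha1 are higher in all 7 MII oocytes than in any GV oocyte, Dld over Pdhb is lower in all of them, and Pdhx over Dlat overlaps.

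In all, 7 of the 8 genes tested were called between MII and GV at an adjusted p under 0.05, 2 higher and 5 lower. Calls were common among all genes as well. Of 11375 genes tested, 68.6% passed the same rule, 31.7% with a higher level at MII and 36.9% with a lower one. The share called among these 8 genes is therefore no result about them. The stages did not overlap in CPM for 5 of the 8 genes, where the share over all genes was 47.4%. The median log2 fold change was −0.60 over the 8 genes and −0.10 over all genes tested. Without TMM scaling, on library totals alone, the log2 fold changes of all genes shifted by a median of −0.29, and 2742 of 7464 calls were higher against 3605 of 7800 with it. All 7 called genes kept their direction under that scaling, with log2 fold changes that were lower by a like amount.

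MII and GV oocytes were also compared within each type in 1 fit of all libraries. In SN oocytes 6 of the 8 genes were called, 2 higher and 4 lower, where 56.3% of all genes were called, 25.1% higher and 31.2% lower. These were Mpc2 at a log2 fold change of −2.39, Pdha1 at −1.51, Dld at −1.28 and Pdhx at −0.55, all lower, and Pdhb at 1.16 and Mpc1 at 0.88, both higher. Ldhb, at −0.58, missed the threshold (adjusted p = 0.0988). In NSN oocytes 5 of the 8 genes were called, 2 higher and 3 lower, against 56.3% of all genes, 25.4% higher and 30.8% lower. They were Mpc2 at −2.3, Pdha1 at −1.31, Dld at −0.86, Pdhb at 1.37 and Mpc1 at 1.25, whereas Ldhb at −0.71 (adjusted p = 0.0624) and Pdhx at −0.54 (adjusted p = 0.057) missed it.

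Several of these calls within a type were lost or gained when 1 library was left out. Without the third NSN-MII library the count of calls was 7 in SN oocytes, 5 in NSN oocytes and 7 over all libraries. The Dld call in NSN oocytes (adjusted p = 0.0212) was lost without the third NSN-MII library (log2 fold change −0.55, adjusted p = 0.0519), the second NSN GV library (adjusted p = 0.0522) or the third (adjusted p = 0.0525). Leaving out the third NSN-MII library also brought a call for Pdhx in NSN oocytes (log2 fold change −0.88, adjusted p = 0.00176) and for Ldhb in SN oocytes (adjusted p = 0.00665), and it took Mpc1 in NSN oocytes from 1.25 to 0.69 (adjusted p = 0.0206). Ldhb in NSN oocytes was called without the first NSN-MII library (log2 fold change −1.18, adjusted p = 0.00435). The Pdhx call in SN oocytes (adjusted p = 0.0366) was lost without SN GV library 1 (adjusted p = 0.127) or 3 (adjusted p = 0.108), or without SN-MII library 2, 3 or 4 (adjusted p = 0.0609, 0.0731 and 0.0925). The Mpc1 call in SN oocytes (adjusted p = 0.0167) was lost without the second SN GV library (adjusted p = 0.0667). Mpc2, Pdha1 and Pdhb were called in both types whichever library was left out.

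**Figure D3:**
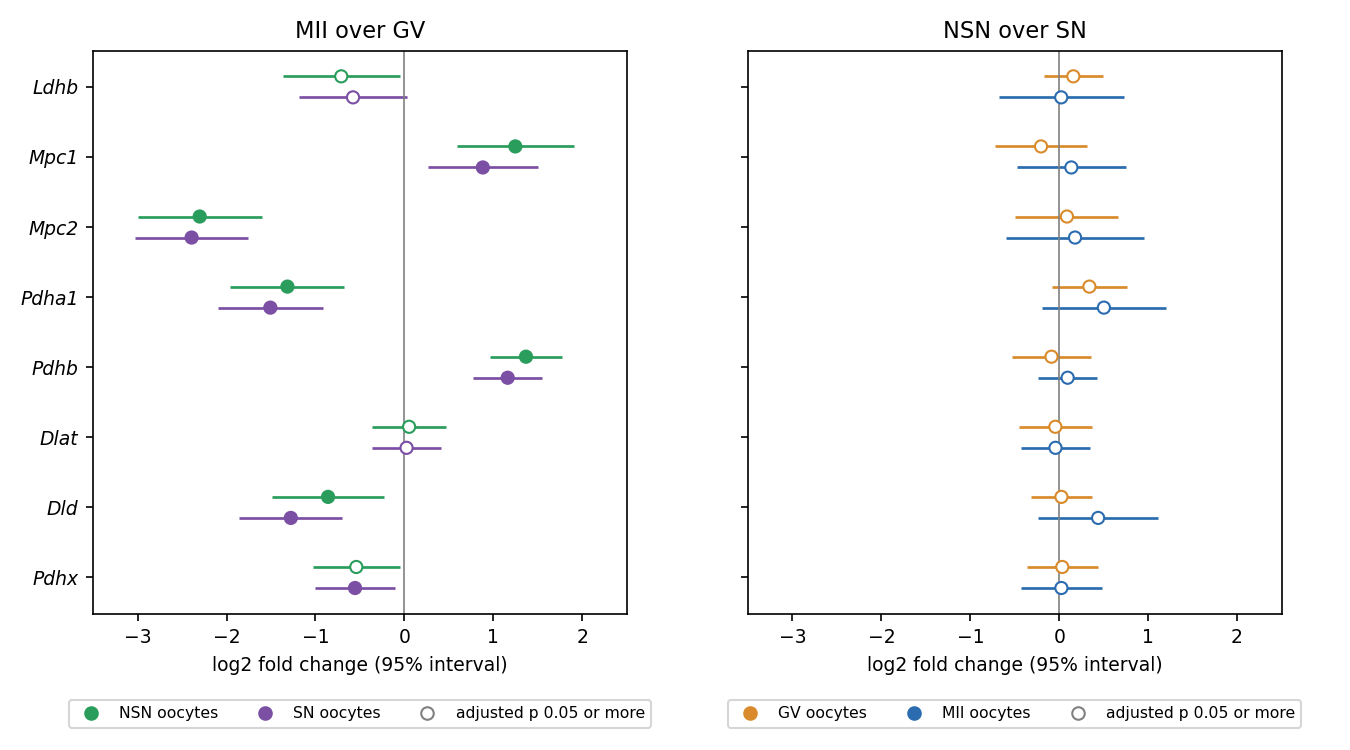
Log2 fold changes of the 8 genes tested (points, horizontal axis) with 95% intervals (lines), MII over GV within NSN and SN oocytes on the left and NSN over SN at GV and at MII on the right. Filled points have an adjusted p under 0.05 in edgeR's quasi-likelihood test. On the left, Mpc2, Pdha1 and Dld are filled below 0 and Mpc1 and Pdhb above 0 in both types, and on the right every interval spans 0.

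None of the 8 genes was called between NSN and SN oocytes. At GV the call rule took 0 of 10839 genes in edgeR (percent called 0), and 190 genes (1.75%) had an unadjusted p under 0.05, none of them among the 8. Their log2 fold changes, NSN over SN, lay between −0.20 for Mpc1 and 0.34 for Pdha1. Pdha1, at 22.46 to 28.79 FPKM in SN and 29.72 to 38.30 FPKM in NSN oocytes, was the 1 gene of the 8 whose groups did not overlap in CPM, where 6.03% of all genes did not. Its 95% interval on the log2 scale was −0.080 to 0.76 (adjusted p = 1). DESeq2 called 0 genes as well.

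At MII, 26 of 10028 genes, 0.259%, were called between NSN-MII and SN-MII oocytes, and 0 of the 8. No gene of the 8 was among the 941 (9.38%) with an unadjusted p under 0.05, and none had groups without overlap in CPM, against 10.2% of all genes. DESeq2 called 217 genes, again 0 of the 8. Log2 fold changes lay between −0.042 for Dlat and 0.50 for Pdha1, and 7 of the 8 were above 0. Pdha1 had an interval of −0.20 to 1.2, Dld one of −0.24 to 1.11 around 0.44, and Ldhb one of −0.68 to 0.72 around 0.023. Differences within these intervals are not excluded by the data. Without the third NSN-MII library, Mpc1 turned from 0.14 to −0.38 and Dld moved to 0.77 (adjusted p = 0.0712).

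The interaction of type and stage asks whether the change from GV to MII differed between NSN and SN oocytes. It was called for 0 of the 8 genes and for 2 of 11375 genes (0.0176%), while 606 genes (5.33%), none of the 8, had an unadjusted p under 0.05, and DESeq2 called 39 genes and 0 of the 8. The interaction log2 fold changes lay between −0.13 for Ldhb and 0.42 for Dld, and the widest intervals ran from −1.03 to 1.27. A gene called in 1 type and missed in the other, as Pdhx was, is therefore not shown to differ between them.

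The kinases and phosphatases that act on the complex were next read between the stages. Pyruvate dehydrogenase kinases switch the complex off by phosphorylating its E1 alpha subunit, and the phosphatases switch it on again. Of 7 such genes, 6 were tested, 5 rose and 0 fell, where 31.7% of all genes were called higher and 36.9% lower. Their median log2 fold change was 1.19 against −0.10 over all genes. Pdk1, a kinase, went from 4.24 to 16.06 FPKM at GV to 26.24 to 44.71 FPKM at MII (log2 fold change 1.72, SE 0.21, adjusted p = 2.06e-06). Pdp1, a catalytic phosphatase subunit, went from 15.53 to 21.27 FPKM at GV to 33.96 to 53.75 FPKM at MII (log2 fold change 1.3, SE 0.14, adjusted p = 4.16e-07). Kinase and phosphatase genes therefore both stood among those that rose. Pdk2, at no more than 2.91 FPKM, was not called (log2 fold change −1.17, adjusted p = 0.207), and Pdk4 had 1 count in 1 library and 0 in the other 12. Pdk3, Pdp2 and Pdpr, though called higher, overlapped between the stages in CPM. Within SN oocytes 3 of the 6 were called, all higher, where 25.1% of all genes were called higher. Within NSN oocytes it was also 3 of the 6, all higher, where 25.4% of all genes were.

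Of the enzymes that make or use pyruvate and lactate by other routes, 9 were tested. Among these, 5 fell, 2 rose and 2 were not called, where 36.9% of all genes were called lower and 31.7% higher. The median log2 fold change was −1.37. Ldhc, the lactate dehydrogenase gene of germ cells, was at 4.25 to 53.16 FPKM at GV and 0 to 2.12 FPKM at MII (log2 fold change −4.46, SE 0.74, adjusted p = 4.60e-05), spreading widely at GV. Pcx, coding for pyruvate carboxylase, which makes oxaloacetate from pyruvate, fell by 3.41 on the log2 scale in counts (adjusted p = 5.02e-07). In FPKM its stages overlapped, at 2.47 to 9.31 and 0.34 to 4.96. Pdha2 rose by a log2 fold change of 1.34 (adjusted p = 0.023) from a low level, and Gpt2, coding for the mitochondrial alanine aminotransferase that exchanges pyruvate and alanine, rose by 1.06 (adjusted p = 5.49e-05).

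Monocarboxylate transporters carry pyruvate and lactate across the plasma membrane with the help of basigin or embigin. Of 4 genes tested among 6, 1 rose, 1 fell and 2 were not called, with a median log2 fold change of −0.32. Emb, coding for embigin, rose from 5.32 to 14.99 FPKM at GV to 9.48 to 22.03 FPKM at MII (log2 fold change 0.77, adjusted p = 0.0119), and Bsg, coding for basigin, fell from 54.27 to 80.80 FPKM to 21.89 to 74.15 FPKM (log2 fold change −0.50, adjusted p = 0.0286). Both overlapped between the stages. The transporter gene Slc16a1 was at 5.58 to 13.09 FPKM at GV and 2.25 to 10.16 FPKM at MII, with no call (log2 fold change −0.32, adjusted p = 0.324).

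Lipoic acid, carried by E2, and the other complexes that use E3 were covered by 13 genes, of which 12 were tested. Of these, 3 rose, 6 fell and 3 were not called, with a median log2 fold change of −0.93. Mecr, coding for an enzyme of the mitochondrial fatty acid synthesis that feeds lipoic acid, went from 68.91 to 100.08 FPKM at GV to 2.10 to 10.65 FPKM at MII (log2 fold change −3.92, SE 0.27, adjusted p = 2.26e-09). Bckdha, coding for an E1 subunit of the branched-chain ketoacid dehydrogenase, went from 1.73 to 8.61 FPKM to 0 to 0.73 FPKM (log2 fold change −3.60, adjusted p = 2.11e-05). The largest rises called were those of Gldc, a gene of the glycine cleavage system, at no more than 0.89 FPKM (log2 fold change 2.32, adjusted p = 0.0211), and Dbt, coding for E2 of the branched-chain complex (log2 fold change 0.90, adjusted p = 0.0165). Dbt, at 1.53 to 5.98 FPKM at GV and 1.99 to 6.05 FPKM at MII, rose in counts and hardly moved in FPKM.

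The malate-aspartate shuttle carries reducing equivalents of cytosolic NADH, such as that made by lactate dehydrogenase, into mitochondria. Its 7 genes were all tested, and 2 rose, 3 fell and 2 were not called, with a median log2 fold change of −0.18. Mdh2, coding for the mitochondrial malate dehydrogenase, went from 149.90 to 189.00 FPKM at GV to 2.80 to 8.51 FPKM at MII (log2 fold change −4.90, SE 0.24, adjusted p = 6.53e-11). Mdh1, coding for the cytosolic enzyme, rose from 65.58 to 98.51 FPKM to 94.35 to 146.80 FPKM (log2 fold change 0.72, SE 0.15, adjusted p = 0.000396). Slc25a13, an aspartate-glutamate carrier gene, rose as well (log2 fold change 1.32, adjusted p = 8.42e-05), and Got2, coding for the mitochondrial aspartate aminotransferase, fell (log2 fold change −1.52, adjusted p = 0.000227).

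Of 16 glycolysis genes, 13 were tested, and 1 rose, 9 fell and 3 were not called, with a median log2 fold change of −1.26. Pkm, coding for the pyruvate kinase that makes pyruvate, went from 207.53 to 257.21 FPKM at GV to 14.14 to 50.58 FPKM at MII (log2 fold change −2.86, SE 0.22, adjusted p = 6.43e-09). Tpi1, coding for triosephosphate isomerase, went from 76.56 to 89.84 FPKM to 5.46 to 14.41 FPKM (log2 fold change −2.85, adjusted p = 2.80e-09). Pgam1, coding for a phosphoglycerate mutase, was the 1 gene of the list that rose (log2 fold change 1.03, adjusted p = 0.000422). In these lists too, the shares called stand against 68.6% of all genes, 31.7% higher and 36.9% lower. In edgeR, no gene of any of the lists was called between NSN and SN oocytes or in the interaction. DESeq2 called more genes at MII and in the interaction, and the genes of these lists were not read there.

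The metabolic gene that came nearest to a call between the types was Me1, coding for the cytosolic malic enzyme, which makes pyruvate from malate. It was chosen after its values were seen. At MII it was at 310.94, 367.54, 302.58 and 308.06 FPKM in SN-MII and 200.39, 199.49 and 106.34 FPKM in NSN-MII oocytes, without overlap, whereas at GV both types lay between 233.86 and 285.56 FPKM and overlapped. It was 1.98-fold lower in NSN-MII oocytes (log2 fold change −0.99, SE 0.19, adjusted p = 0.068), and its interaction log2 fold change was −0.89 (SE 0.28, adjusted p = 0.631).

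**Figure D4:**
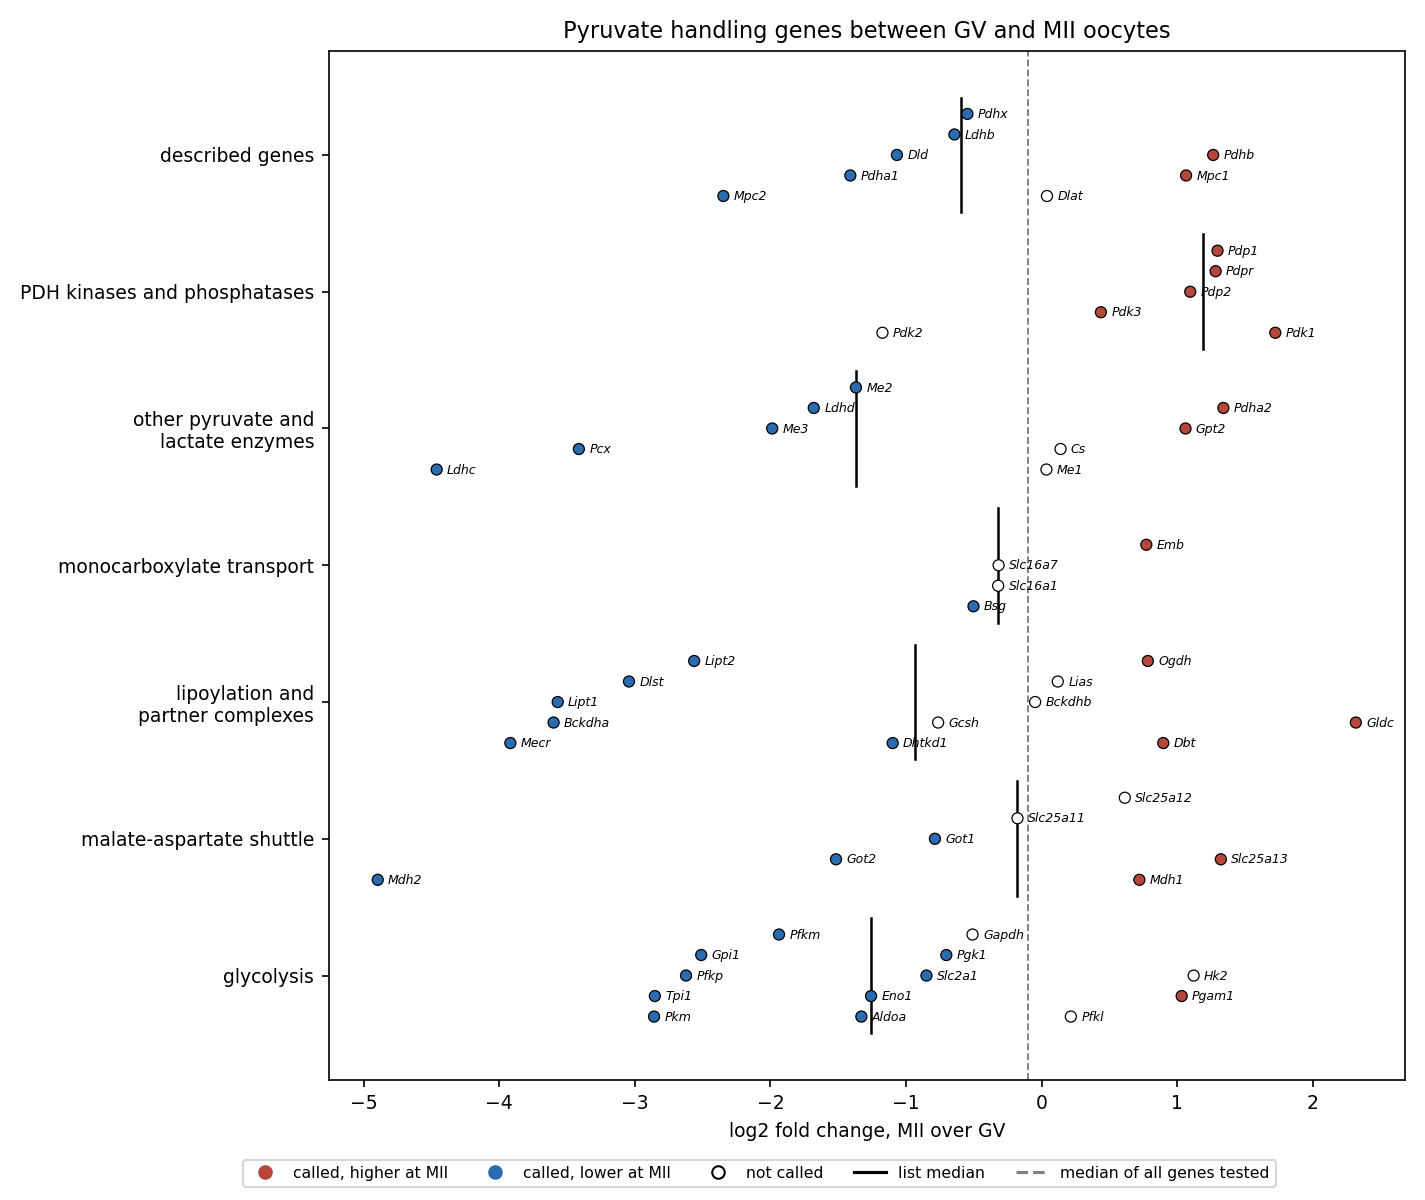
Log2 fold changes, MII over GV (horizontal axis), of the tested genes of each list, over 6 GV and 7 MII oocytes; the vertical position within a list only spreads the points. Red and blue points were called higher and lower at MII at an adjusted p under 0.05, open points were not called, black lines are list medians and the dashed line is the median of all genes tested, −0.10. The regulators lie mostly to the right, with a median of 1.19, and glycolysis mostly to the left, with a median of −1.26.

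For each of the 8 genes, the genes with the most similar pattern were found among 7705 genes, as the smallest root mean square difference of centred log2 FPKM values over the 13 libraries. The distance was 0.19 from Pdha1 to Mthfd1, 0.13 from Pdhb to both Snapin and Rcc2, 0.14 from Dlat to Mios and 0.12 from Dld to Eef2k. It was 0.16 from Pdhx to Senp8, 0.16 from Ldhb to Cyb5r3, 0.16 from Mpc1 to Tcl1b5 and 0.20 from Mpc2 to H2afv. The next in likeness were Atp5a1 for Pdha1, Kpnb1 for Dlat, Fam32a for Dld, Rab38 for Pdhx, Gm44613 for Ldhb, Rfc5 for Mpc1 and Tecr for Mpc2. The closest pair among the 8 genes themselves was Pdhb and Mpc1, at 0.30. Many other genes were nearer to each of them. Pdhb ranked 326 in likeness to Mpc1 among the 7705 genes, and Mpc1 ranked further down in likeness to Pdhb. The median distance over these genes was 0.77 from Pdhb and 0.76 from Mpc1. This pair is therefore not shown to share a pattern of its own.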

How the data were processed

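Single-oocyte RNA-seq libraries of 13 mouse oocytes were analysed, grouped by the sample titles, with each oocyte as 1 replicate. Reads were trimmed with Trim Galore 0.4.4, mapped to mm10 with Bowtie2 2.3.5 and quantified with RSEM 1.2.28, and DESeq2 1.20.0 was run, per the submitters' processing notes. The estimated count values were deposited by the authors as RSEM gives them, 1 table per stage. RSEM shares out reads that map to several genes, so up to 16.6% of a library's nonzero values were not whole. A table of all libraries holds the deposited FPKM values, which RSEM scales for transcript length and library size. No column was left unused. SMART-seq2 names no molecular identifier or strand, so errors beyond counting remain in each value, and overlapping genes cannot be separated.

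Counts were rounded, filtered with filterByExpr, scaled by TMM and tested with edgeR 4.0.16's quasi-likelihood test (R 4.3.3) with Benjamini-Hochberg adjustment over all genes tested. Types (NSN against SN) were compared at GV and at MII. Stages were compared over all libraries, within each type and as an interaction of type and stage in 1 model. Called means an adjusted p under 0.05. The common biological coefficient of variation was 0.352 at GV, 0.344 at MII and 0.364 over all libraries, and it limits the precision more than the total counts do. No library was a copy of another. The steps were tested on simulated data.

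The 9 genes and all gene lists were chosen with earlier results of these data known. Beside the 9 genes, the text names from each list the genes called in a comparison of types (none) and the 2 largest rises and 2 largest falls called between the stages, with a few uncalled or abundant genes added after their values were seen. Likeness was computed over genes whose mean FPKM was 5 or more. Symbols were matched to GENCODE M21 for 18887 genes (99.7%), from which coordinates, transcripts and sequences come. Alternatives were DESeq2 1.42.0, its size factors, library totals, no filter, limma 3.58.1 on log2(FPKM + 1) or log2(FPKM + 0.1) with genes of a mean of at least 1 or all genes, the replicate number as a block, a 1.5-fold minimum beside an unadjusted p below 0.05, and leaving out each library. Protein sequences were not used here.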

Additional observations from a re-analysis of the deposited data

How the results depend on the processing

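Among the 8 genes, no call was gained or lost in a comparison of NSN with SN oocytes or in the interaction, under any alternative run. Of 968 values of single genes under an alternative, 872 kept direction and side of the threshold, 14 lost a call, 15 gained one and 67 turned sign, and none of those that turned had been called. The count of the 8 genes called between stages was 6 or 7 over all libraries, 4 to 7 in SN and 4 to 7 in NSN oocytes, against 7, 6 and 5. Over all genes, DESeq2 called 217 between types at MII against 26 with edgeR, and 39 against 2 in the interaction. The cause of these changes was not tested. Requiring 1.5-fold ended the Pdhx calls over all libraries and in SN oocytes, since its change is smaller. Library totals ended the Mpc1 call in SN oocytes (0.57, adjusted p = 0.0671), and 7 of 9 other alternatives called Ldhb in NSN oocytes. Replicate numbers are shared between groups, and the deviations of same-numbered libraries correlated at −0.46 to 0.20. Libraries of unlike number were not compared, so this check cannot tell whether the numbers pair the oocytes. With the replicate block, in a fit of all libraries, Pdhx (−0.47, adjusted p = 0.124) and Mpc1 (0.81, adjusted p = 0.055) lost their calls in SN oocytes. The block also turned Dlat to −0.052 in SN oocytes, and between types at MII Dlat to 0.032, Pdhx to −0.092 and Ldhb to −0.13, and in the interaction Pdha1 to −0.045 and Pdhx to −0.096.

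Dlat between stages turned over all libraries to −0.0042 with DESeq2, −0.0036 with its size factors, −0.26 with library totals and −0.024 with limma at each pseudocount and filter. In SN oocytes it turned to −0.028, −0.028, −0.28 and, with limma, −0.090 (pseudocount 1, both filters) or −0.092 (0.1), and in NSN oocytes to −0.25 with library totals. Between types at MII, Dlat was 0.00021 with library totals and Ldhb −0.10 with limma at each setting. The Pdhx interaction was −0.019 with library totals, −0.031 with limma at pseudocount 1 and −0.032 at 0.1.

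Leaving out single libraries also turned signs, with ranges of log2 values as follows. Between stages over all libraries Dlat −0.0024 to 0.073. Between stages in SN oocytes Dlat −0.048 to 0.091. Between stages in NSN oocytes Dlat −0.016 to 0.11. Between types at GV Pdhx −0.11 to 0.11, Mpc2 −0.18 to 0.23 and Dld −0.023 to 0.094. Between types at MII Ldhb −0.42 to 0.38, Dlat −0.11 to 0.028, Pdhx −0.28 to 0.17, Mpc2 −0.24 to 0.40, Pdhb −0.010 to 0.15 and Mpc1 −0.38 to 0.35. In the interaction Pdhx −0.31 to 0.14, Dlat −0.036 to 0.10, Mpc2 −0.31 to 0.39, Ldhb −0.59 to 0.22, Pdha1 −0.031 to 0.39 and Mpc1 −0.18 to 0.60.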
